A study of Homo sapiens with 6 samples.

Results

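Genes of transforming growth factor beta (TGF-beta) and bone morphogenetic protein (BMP) signalling were examined in MDA-MB-231, a mesenchymal breast cancer line without hormone receptors or amplified HER2. The set holds 70 of the 18132 genes measured, with 180 probe sets. Members were chosen by symbol: the SMAD, BMP, BMPR, TGFB, TGFBR, ACVR, GDF and INHB families and 20 named ligands, binding proteins, antagonists and regulators. Where a gene had several probe sets, the one brightest on average over the 6 arrays stood for it. SAHA arrays hold RNA of cells given SAHA at 5 µM for 8 h, and DMSO arrays RNA of cells kept as long with its solvent DMSO, with 3 Affymetrix PrimeView arrays in each group. SAHA, also called vorinostat, blocks histone deacetylases (HDACs). The cells carry no engineered change that the labels name. The line stems from a single tumour, and the labels do not say that the arrays of a group came from separate cultures, so the p-values rest on array-to-array spread that may be technical.

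TGF-beta family ligands are secreted dimers that bring together type I and type II receptor kinases at the cell surface. The type I receptor then phosphorylates receptor-regulated SMAD proteins, SMAD2 and SMAD3 for TGF-beta and activin and SMAD1, SMAD5 and SMAD9 for BMP, which enter the nucleus with the shared partner SMAD4. SMAD6 and SMAD7 are inhibitory. In breast cancer the TGF-beta branch restrains growth of early tumours and is linked to invasion and metastasis in late ones, and the corepressors SKI, SKIL, TGIF1 and TGIF2 bring HDAC complexes to SMAD proteins.

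With SAHA, the BMP ligands BMP8B, BMP6 and BMP2 and the feedback inhibitors PMEPA1 and BAMBI rose between 4.75-fold and 10.1-fold. SMAD1, a transcription factor of the BMP branch, was 6.97-fold lower with SAHA, and the ligand TGFB2 4.12-fold lower. Each fold is that of the gene's brightest probe set. Dimmer probe sets gave smaller changes for BMP8B (2.34-fold and 1.16-fold), BMP6 (3.65-fold), BMP2 (4.43-fold) and TGFB2. The spread was narrow for SMAD1 and PMEPA1, and BAMBI has 1 probe set. Values are log2 expression values, differences are given as log2 of SAHA over DMSO with a standard error, and adjusted p-values come from limma with Benjamini-Hochberg adjustment over all 18132 genes. A gene is called changed where that p is under 0.05.

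Of the 70 members, 21 rose and 19 fell, or 57.1%, where 48.3% of all genes were called. Rises made up 30.0% of the members and 24.6% of all genes, and falls 27.1% and 23.8%. At least 2-fold changes were found in 17 members (24.3%), 8 higher and 9 lower, beside 10.4% of all genes, with 5.93% higher and 4.47% lower. The median log2 fold change was 0.02 over the members and -0.01 over all genes. By mean log2 value, 3 of 20 members under 5 were called (15.0%, beside 11.9% of all genes at that level), 12 of 18 between 5 and 7 (66.7%, beside 39.4%) and 25 of 32 at 7 or more (78.1%, beside 75.1%). A difference in one of these bands is a description and was not tested. The 3 SAHA values lay outside the range of the 3 DMSO values in all 40 called members and in 4 that were not called, GDF6, BMP7, GDF3 and SMAD2, which makes 62.9% of the members and 55.5% of all genes. How many rose and fell moved with scaling: centred on poly-A spike-ins, which shifts all genes by 0.16, 27 members were higher and 16 lower, with all genes called higher at 5829 and all genes called lower at 2556. Centred on ribosomal protein genes, with a shift of 0.14, 28 members were higher and 17 lower, with 6555 and 3243 over all genes.

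**Figure D1:**
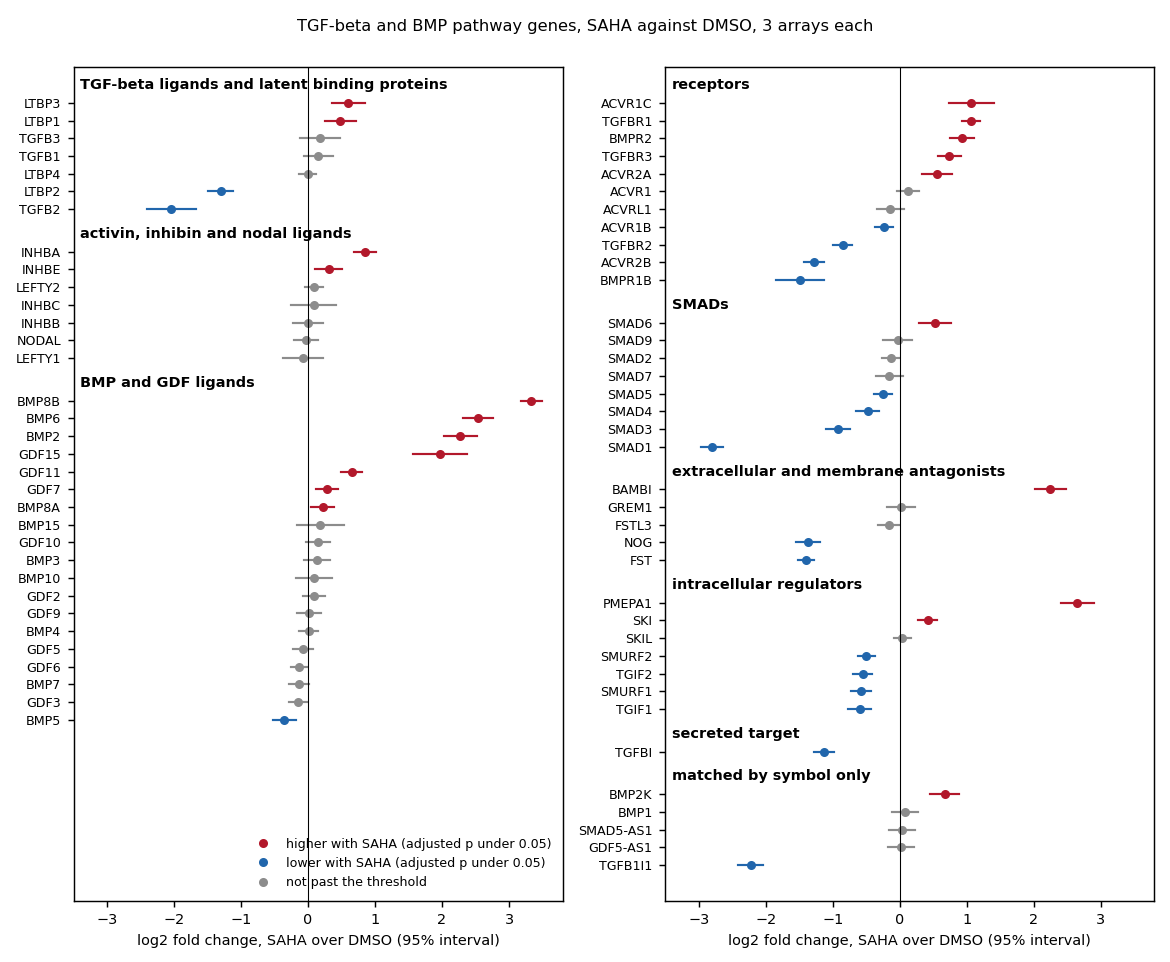
The log2 fold change of SAHA over DMSO is plotted for each of the 70 members, grouped by role, as a point with its 95% interval from limma (3 arrays per group). Red points are higher, blue points lower and grey points not past the threshold; BMP8B lies farthest right at 3.33 and SMAD1 farthest left at -2.80.

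Arrays of a group were close to each other, with Pearson's r across probe sets of 0.997 to 0.998 within groups and 0.968 to 0.970 between them. CDKN1A, the p21 gene often used as a sign of HDAC inhibition, was at 11.63, 11.66 and 11.60 in SAHA arrays and 9.73, 9.72 and 9.71 in DMSO arrays. Markers of the line were high, with VIM at 14.02 in SAHA and 13.96 in DMSO arrays and CD44 at 11.66 and 12.24. The epithelial marker CDH1, at 4.17 and 4.20, the progesterone receptor PGR, at 3.38 and 3.29, and the leukocyte marker PTPRC, at 3.24 and 3.33, were near the bottom of the scale. Other luminal markers were not near the bottom: EPCAM was at 7.74 in SAHA and 8.67 in DMSO arrays, ERBB2 at 7.16 and 7.63, FOXA1 at 6.77 and 7.55, GATA3 at 5.43 and 6.67, and ESR1 at 6.01 and 5.98. Of these, EPCAM, ERBB2, FOXA1 and GATA3 fell with SAHA. The leukocyte marker CD14 rose, at 4.97 in SAHA and 3.96 in DMSO arrays (adjusted p = 3.90e-05), and CD3E fell, at 4.63 and 4.88. The part of these markers in the results below was not tested. The 3' to 5' difference of the ACTB control probe sets, a measure of RNA integrity and amplification, was 0.61 ± 0.06 in SAHA arrays and 0.89 ± 0.16 in DMSO arrays (SD, n = 3). That of GAPDH went the other way, at 0.06 ± 0.02 in SAHA and 0.03 ± 0.02 in DMSO arrays. An exact permutation test, two-sided, gave p = 0.1 for each, which 3 against 3 arrays cannot undercut, and 0.2 after adjustment over 4 control measures. These differences too were not tested against the results below. In RNA of a whole culture, fewer expressing cells and less RNA per cell cannot be told apart.

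Upstream sequences of 4 members are shown because these genes moved by at least 2-fold and have a single listed start, so the upstream sequence is not ambiguous. BMP8B, BMP6 and BAMBI have the largest rises among such members and TGFB2 the largest fall, a choice made after their values were seen. The 250 bases before the start are printed 5′ to 3′ on the gene's strand, from RefSeq with build GRCh38.p14. Capitals mark GC boxes (GGGCGG or CCGCCC), to which SP and KLF factors bind, SMAD boxes (CAGAC or GTCTG) and the GC-rich element GGCGCC. Both strands were searched, and words may overlap. The regions are chr1:39788866-39789115 (minus strand) for BMP8B, chr6:7725849-7726098 (plus strand) for BMP6, chr10:28677271-28677520 (plus strand) for BAMBI and chr1:218345086-218345335 (plus strand) for TGFB2.
BMP8B: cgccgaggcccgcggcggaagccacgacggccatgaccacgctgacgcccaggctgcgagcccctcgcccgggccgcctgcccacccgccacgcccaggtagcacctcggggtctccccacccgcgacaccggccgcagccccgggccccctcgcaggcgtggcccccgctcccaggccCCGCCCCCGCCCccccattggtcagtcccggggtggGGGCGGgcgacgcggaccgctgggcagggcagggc
BMP6: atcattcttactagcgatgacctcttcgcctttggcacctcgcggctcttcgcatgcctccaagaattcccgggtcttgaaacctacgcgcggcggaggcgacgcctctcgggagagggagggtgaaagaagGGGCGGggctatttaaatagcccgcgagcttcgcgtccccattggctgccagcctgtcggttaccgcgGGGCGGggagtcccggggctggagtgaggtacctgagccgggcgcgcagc
BAMBI: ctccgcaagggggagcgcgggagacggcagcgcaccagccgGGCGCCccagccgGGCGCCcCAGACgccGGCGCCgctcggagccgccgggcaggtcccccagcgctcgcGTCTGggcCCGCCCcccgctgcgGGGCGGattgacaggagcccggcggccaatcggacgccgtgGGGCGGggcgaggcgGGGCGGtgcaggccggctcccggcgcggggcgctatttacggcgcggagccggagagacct
TGFB2: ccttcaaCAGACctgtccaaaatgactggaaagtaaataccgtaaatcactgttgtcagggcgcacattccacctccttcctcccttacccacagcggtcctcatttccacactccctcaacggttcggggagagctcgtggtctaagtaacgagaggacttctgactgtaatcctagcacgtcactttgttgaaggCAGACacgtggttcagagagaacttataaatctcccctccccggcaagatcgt
BMP8B held 3 GC boxes, BMP6 2 and BAMBI 4, and TGFB2 held 0. GC boxes stood before members of both directions. Of the 9 members changed at least 2-fold with a single listed start, 4 of the 4 that rose and 4 of the 5 that fell held at least 1. These 4 fallen members were FST with 2, LTBP2 and TGFBI with 3 each and ACVR2B with 5. BAMBI also held 2 SMAD boxes and 3 GGCGCC elements, and TGFB2 2 SMAD boxes, the nearer one starting 53 bases before the start site. Of all 35116 listed promoters, 42.6% held a GC box, 38.0% a SMAD box and 16.4% a GGCGCC element in the same window. The 58 members matched in that table had 106 listed starts, of which 56.6%, 39.6% and 23.6% held these words. A match describes letters only, and was not read as a binding site.

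TGF-beta itself is encoded by 3 ligand genes and is secreted in latent form, held in the matrix by latent TGF-beta binding proteins. TGFB2 was at 4.79, 4.84 and 4.93 in SAHA arrays, against 6.54, 6.93 and 7.22 in DMSO arrays. All SAHA values lay far below the lowest DMSO value, and the DMSO arrays were more spread. The log2 fold change was -2.04 ± 0.16 (adjusted p = 1.90e-05). TGFB2 was also lower in its dimmer probe set, at -0.60 ± 0.15 and an adjusted p of 0.0105 in the fit over probe sets, so the size differs between the 2. TGFB1, the main isoform in most tumours, was at 7.86 ± 0.03 in SAHA and 7.71 ± 0.19 in DMSO arrays (SD, n = 3), and its log2 fold change of 0.15 did not pass (95% interval -0.07 to 0.37). TGFB3 did not pass either, at 0.17 with an interval of -0.12 to 0.47. Its dimmer probe sets gave -0.21 ± 0.14 and -0.02 ± 0.10 and were not called. With poly-A centring TGFB1 and TGFB3 were called higher, and with ribosomal centring TGFB1 was.

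Among the binding proteins, LTBP2 fell and LTBP1 and LTBP3 rose. LTBP2, a microfibril protein that does not bind latent TGF-beta, was at 6.05, 5.88 and 5.85 in SAHA arrays, against 7.15, 7.36 and 7.19 in DMSO arrays. The groups were well apart and the log2 fold change was -1.31 ± 0.08 (adjusted p = 6.74e-06), with -0.88 ± 0.08 in its other probe set. LTBP3 rose by 0.60 ± 0.11 (adjusted p = 0.00189) and its other 3 probe sets by 0.84 to 0.92. LTBP1 rose by 0.48 ± 0.10 (adjusted p = 0.00373), and all 5 of its probe sets were called higher. LTBP4 did not pass, at -0.01 with a 95% interval of -0.14 to 0.12, and 1 of its 6 probe sets was called higher.

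Among activin, inhibin and nodal ligands, 2 of 7 rose and 0 fell, beside 24.6% and 23.8% of all genes. INHBA, whose product forms activin A, was at 8.09, 8.14 and 8.32 in SAHA arrays and 7.38, 7.31 and 7.33 in DMSO arrays. The rise of 0.85 ± 0.07 (adjusted p = 3.13e-05) was seen in its brighter probe set, while the other gave 0.16 ± 0.10 (adjusted p = 0.258 over probe sets). INHBE, an activin subunit mainly of liver, rose by 0.31 ± 0.09 (adjusted p = 0.0215) from a level near the bottom of the scale, at 4.02 in SAHA and 3.71 in DMSO arrays. Without DMSO array 3, SAHA array 1 or SAHA array 3 the call of INHBE was lost. INHBB, INHBC, NODAL and the nodal antagonists LEFTY1 and LEFTY2 did not pass, at -0.08 to 0.09.

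Of the 19 BMP and GDF ligand genes, 7 rose and 1 fell, and 4 of the rises were at least 2-fold. Of all genes, 24.6% rose, 23.8% fell and 5.93% rose at least 2-fold. The ligand counts beside these shares are a description and were not tested. BMP8B, a BMP close to BMP5, BMP6 and BMP7 in sequence, was at 9.46, 9.29 and 9.35 in SAHA arrays, against 5.97, 6.09 and 6.05 in DMSO arrays. The gap between the groups was many times the spread within either, and the gene ranked 34th from the top among all genes, at 3.33 ± 0.07 (10.1-fold, adjusted p = 1.07e-07). Its dimmer probe sets gave 1.23 ± 0.15 and 0.22 ± 0.08, the last not past the threshold over probe sets (adjusted p = 0.0649). BMP8A, a near copy of BMP8B in the genome, rose by 0.22 ± 0.08 in a probe set shared by similar transcripts (adjusted p = 0.0476) and by 1.49 ± 0.15 in its other one. The call of BMP8A was lost in 11 of the 20 other settings, 5 of them with a single array left out, and how probes divide signal between these paralogs is uncertain.

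BMP6 was at 7.16, 7.05 and 6.97 in SAHA arrays, against 4.53, 4.36 and 4.68 in DMSO arrays. It rose by 2.53 ± 0.09 (5.79-fold, adjusted p = 6.30e-07), and by 1.87 ± 0.07 in its other probe set. BMP2, a strong inducer of bone formation, was at 6.54, 6.46 and 6.46 in SAHA arrays and 4.31, 4.38 and 3.98 in DMSO arrays. All SAHA values lay above all DMSO values. Both probe sets of BMP2 rose, by 2.27 ± 0.10 (4.83-fold, adjusted p = 1.61e-06) and by 2.15 ± 0.16.

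GDF15, a stress-induced cytokine that acts through the receptor GFRAL, was at 7.81, 7.57 and 7.89 in SAHA arrays, against 6.19, 5.60 and 5.57 in DMSO arrays. The groups did not overlap, and DMSO array 1 was the highest of its group. The log2 fold change was 1.97 ± 0.17 (adjusted p = 3.85e-05). Other probe sets of GDF15 gave 2.45, 3.01, 0.28 and -0.04, the last not called (adjusted p = 0.759 over probe sets). GDF11, a relative of myostatin, rose by 0.65 ± 0.07 (adjusted p = 8.51e-05), and by 1.64 ± 0.10 and 1.71 ± 0.09 in its other probe sets, so its brightest probe set gave the smallest rise. GDF7 rose by 0.28 ± 0.07 (adjusted p = 0.0134), a call lost without SAHA array 2 or SAHA array 3. BMP5 fell by 0.36 ± 0.07 (adjusted p = 0.00476) at a level near the bottom of the scale, and its other probe set gave -0.04. With poly-A centring the call of BMP5 was lost. BMP4 did not pass, at 7.60 ± 0.05 in SAHA and 7.60 ± 0.08 in DMSO arrays (95% interval of the difference -0.14 to 0.15). The other 10 that did not pass were at -0.15 to 0.18.

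**Figure D2:**
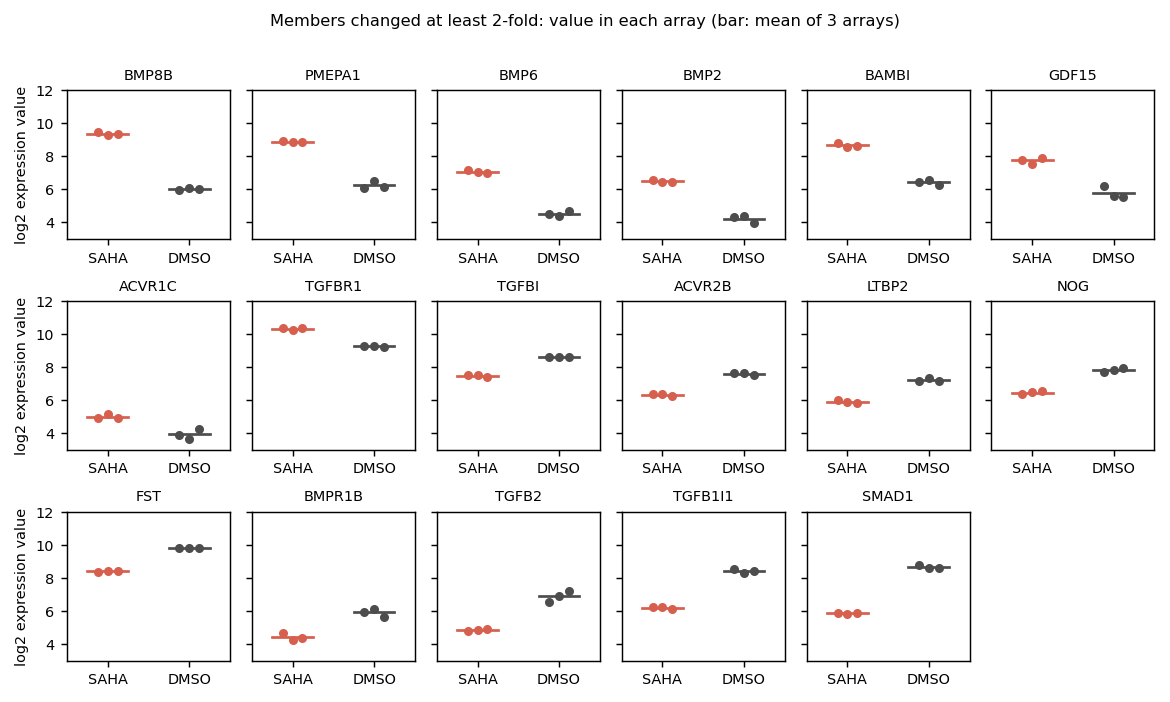
The log2 expression value of each array is plotted for the 17 members changed at least 2-fold, with SAHA left and DMSO right in every panel and a bar at the mean of 3 arrays. The 2 groups are apart in each panel; BMP8B lies at 9.29 to 9.46 with SAHA and SMAD1 at 5.86 to 5.91.

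Receptor genes moved both ways, with 5 of 11 higher and 4 lower, beside 24.6% and 23.8% of all genes. Of the 11, 7 had a mean log2 value of at least 7, the level at which 75.1% of all genes were called. The receptor counts are therefore a description. The pair that binds TGF-beta went in opposite directions. TGFBR1, the type I receptor, was at 10.37, 10.26 and 10.38 in SAHA arrays and 9.29, 9.31 and 9.23 in DMSO arrays. TGFBR2, the type II receptor, was at 10.71, 10.61 and 10.62 in SAHA arrays and 11.56, 11.47 and 11.46 in DMSO arrays. TGFBR1 was higher and TGFBR2 lower in every SAHA array than in any DMSO array. TGFBR1 rose by 1.06 ± 0.06 (adjusted p = 3.64e-06), and TGFBR2 fell by 0.85 ± 0.06 (adjusted p = 1.10e-05). The rise of TGFBR1 comes from a probe set shared by similar transcripts, and its other, much dimmer probe sets gave 0.26 ± 0.13 and 0.31 ± 0.12, not past the threshold (adjusted p = 0.132 and 0.0731 over probe sets). TGFBR2 fell by 0.72 ± 0.06 in its second probe set, and both are of the shared kind. TGFBR3 (betaglycan), a co-receptor that presents TGF-beta2, rose by 0.74 ± 0.07 (adjusted p = 7.70e-05).

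Of the other type II receptors, which serve BMP and activin, BMPR2 was at 8.62, 8.46 and 8.68 in SAHA arrays and 7.57, 7.75 and 7.67 in DMSO arrays. BMPR2 rose by 0.93 ± 0.08 (adjusted p = 2.98e-05) in that probe set and by 0.75 ± 0.15 in its dimmest one, but its second brightest was at -0.03 ± 0.10 (adjusted p = 0.840 over probe sets). ACVR2B was at 6.39, 6.37 and 6.24 in SAHA arrays, against 7.64, 7.65 and 7.56 in DMSO arrays. It fell by 1.28 ± 0.06 (adjusted p = 2.22e-06). Its other probe set gave -0.44 ± 0.07. ACVR2A rose by 0.55 ± 0.10 (adjusted p = 0.00189), and its 3 probe sets were all called higher. The activin type II receptors ACVR2A and ACVR2B thus moved in opposite directions.

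Of the other type I receptors, BMPR1B, which binds BMP ligands, was at 4.70, 4.25 and 4.40 in SAHA arrays, against 5.98, 6.16 and 5.66 in DMSO arrays. The groups did not overlap, and BMPR1B fell by 1.49 ± 0.15 (adjusted p = 8.95e-05) in a shared probe set. The other probe set of BMPR1B, near the bottom of the scale, gave -0.20 ± 0.11 and was not called (adjusted p = 0.195 over probe sets). ACVR1C, a receptor of nodal and activin B, was at 4.93, 5.15 and 4.94 in SAHA arrays and 3.87, 3.69 and 4.26 in DMSO arrays. It rose by 1.07 ± 0.14 (adjusted p = 3.96e-04) at a low level. Of its other probe sets, the brighter gave 0.05 ± 0.07 and the dimmer 0.44 ± 0.10. ACVR1B, the activin A receptor, fell by 0.24 ± 0.06 (adjusted p = 0.0104), a call lost with poly-A or ribosomal centring. ACVR1, a BMP receptor, did not pass at 0.12 (95% interval -0.04 to 0.28), but was called higher with both of these centrings. ACVRL1, mainly a receptor of endothelium, was at -0.14 (interval -0.34 to 0.06). BMPR1A was not analysed here.

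Of the 8 SMAD genes, 4 fell and 1 rose, beside 23.8% and 24.6% of all genes, and 3 did not pass. These counts are a description and were not tested. At a mean log2 value of at least 7, where 7 of the 8 lie, 75.1% of all genes were called. SMAD1 was at 5.89, 5.86 and 5.91 in SAHA arrays, against 8.81, 8.61 and 8.64 in DMSO arrays. The 3 SAHA values were nearly equal and all far below the DMSO values. SMAD1 fell by 2.80 ± 0.07 (adjusted p = 1.97e-07), the 22nd largest fall among all genes, and by 2.55 ± 0.10 in its other probe set. SMAD5, which acts beside SMAD1 in BMP signalling, fell by 0.25 ± 0.06 (adjusted p = 0.00665), with 4 of its 5 probe sets called lower. The fall of SMAD5 is small, and its call was lost with poly-A or ribosomal centring and without the shared probe sets. SMAD9, the other SMAD of the BMP branch, did not pass, at -0.03 (95% interval -0.24 to 0.18), at a low level. The 95% interval of SMAD1, -2.96 to -2.64, lies wholly below those of SMAD5 (-0.38 to -0.12) and SMAD9.

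In the TGF-beta branch, SMAD3 was at 8.95, 8.72 and 8.77 in SAHA arrays and 9.74, 9.82 and 9.66 in DMSO arrays. It fell by 0.92 ± 0.08 (adjusted p = 3.34e-05), and its 5 probe sets were all called lower, at -1.10 to -0.49. SMAD2 did not pass, at -0.14 (95% interval -0.26 to -0.01), and 2 of its 7 probe sets were called lower. In 4 of the 20 other settings, among them the mean of its probe sets, SMAD2 was called lower. The intervals of SMAD3 (-1.11 to -0.74) and SMAD2 do not overlap. SMAD4, the shared partner, was at 9.35, 9.32 and 9.32 in SAHA arrays and 9.92, 9.82 and 9.67 in DMSO arrays. It fell by 0.48 ± 0.07 (adjusted p = 8.86e-04), with 5 of 7 probe sets called lower, though its second brightest was at -0.18 ± 0.08 and not called. SMAD6, the inhibitor of the BMP branch, rose by 0.53 ± 0.10 (adjusted p = 0.00300) in its brightest probe set, while the other 2 gave 0.07 and 0.04 and were not called. SMAD7, the general inhibitor, did not pass, at -0.16 (95% interval -0.35 to 0.04).

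Antagonists outside the cell and at its membrane went both ways. BAMBI, a pseudoreceptor that lacks the kinase domain, was at 8.81, 8.60 and 8.64 in SAHA arrays, against 6.48, 6.58 and 6.24 in DMSO arrays. All SAHA values were above all DMSO values, and BAMBI rose by 2.25 ± 0.10 (4.75-fold, adjusted p = 1.34e-06). Its upstream sequence is among those printed above. NOG, which encodes noggin, a trap of BMP ligands, was at 6.37, 6.48 and 6.54 in SAHA arrays and 7.73, 7.82 and 7.96 in DMSO arrays. NOG fell by 1.37 ± 0.08 (adjusted p = 3.96e-06). BAMBI and NOG have 1 probe set each, so neither was checked by a second.

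FST, which encodes follistatin, a trap of activin, was at 8.39, 8.45 and 8.47 in SAHA arrays, against 9.82, 9.85 and 9.83 in DMSO arrays. It fell by 1.40 ± 0.05 (adjusted p = 6.58e-07), and FST values in its dimmer probe sets were -2.28 ± 0.08 and -2.55 ± 0.10. The related FSTL3 did not pass, at -0.17 (95% interval -0.33 to -0.01), while its 2 dimmer probe sets were called lower, at -0.26 ± 0.06 and -0.73 ± 0.06 over probe sets. In 5 of the 20 other settings FSTL3 was called lower. GREM1, a BMP antagonist, was near the bottom of the scale in both groups, at 3.77 in SAHA and 3.75 in DMSO arrays, and did not pass.

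Inside the cell, 2 of 7 regulators rose and 4 fell, beside 24.6% and 23.8% of all genes. Of the 7, 5 had a mean log2 value of at least 7, where 75.1% of all genes were called. PMEPA1, a membrane protein induced by TGF-beta that holds back SMAD2 and SMAD3, was at 8.92, 8.88 and 8.88 in SAHA arrays, against 6.09, 6.49 and 6.15 in DMSO arrays. The SAHA arrays were nearly equal and lay above all DMSO arrays. It rose by 2.65 ± 0.10 (6.28-fold, adjusted p = 8.24e-07), and its other probe sets by 2.68 ± 0.10 and 2.33 ± 0.24. The ubiquitin ligases SMURF1 and SMURF2, which mark SMAD proteins and receptors for breakdown, fell by 0.58 ± 0.06 (adjusted p = 1.37e-04) and 0.50 ± 0.05 (adjusted p = 1.16e-04). The corepressors TGIF1 and TGIF2 fell by 0.60 ± 0.07 (adjusted p = 2.27e-04) and 0.55 ± 0.06 (adjusted p = 1.52e-04). In these 4 genes every probe set was called lower, with SMURF1 at -0.26 in its dimmer one. SKI, also a corepressor, rose by 0.41 ± 0.06 (adjusted p = 7.59e-04), with 3 of 5 probe sets called higher. Its relative SKIL did not pass, at 0.04 (95% interval -0.09 to 0.17).

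TGFBI, a matrix protein named for its induction by TGF-beta, was at 7.55, 7.55 and 7.39 in SAHA arrays and 8.62, 8.64 and 8.62 in DMSO arrays. It fell by 1.13 ± 0.06 (adjusted p = 3.42e-06), and its 4 probe sets lay in a narrow range, at -1.22 to -1.08. The remaining 5 members entered by a match of their symbol and were given none of the roles above. TGFB1I1 (Hic-5), a focal adhesion adaptor first found as induced by TGF-beta1, was at 6.25, 6.28 and 6.14 in SAHA arrays, against 8.58, 8.32 and 8.44 in DMSO arrays. It fell by 2.22 ± 0.08 (adjusted p = 5.53e-07) in its single probe set, after SMAD1 the largest fall of the set. BMP2K, a kinase, rose by 0.67 ± 0.09 (adjusted p = 5.30e-04) and by 0.26 ± 0.06 in its other probe set. BMP1, a procollagen protease, and the antisense transcripts SMAD5-AS1 and GDF5-AS1 did not pass, at 0.02 to 0.08.

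Different probe sets of one member pointed the same way where they were called. Of the 31 members with 2 or more called probe sets, 0 had them called in both directions, beside 161 of 5476 such genes (2.94%) on the whole array. Over all 180 probe sets of the members, 97 were called (53.9%), beside 46.4% of all probe sets that are not array controls. The spread between probe sets was wide for BMP8B, GDF15, GDF11, TGFB2, BMPR1B, BMP8A, FST, ACVR1C and BMPR2, among others. It was narrow for SMAD1, PMEPA1, BMP2 and TGFBI.

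**Figure D3:**
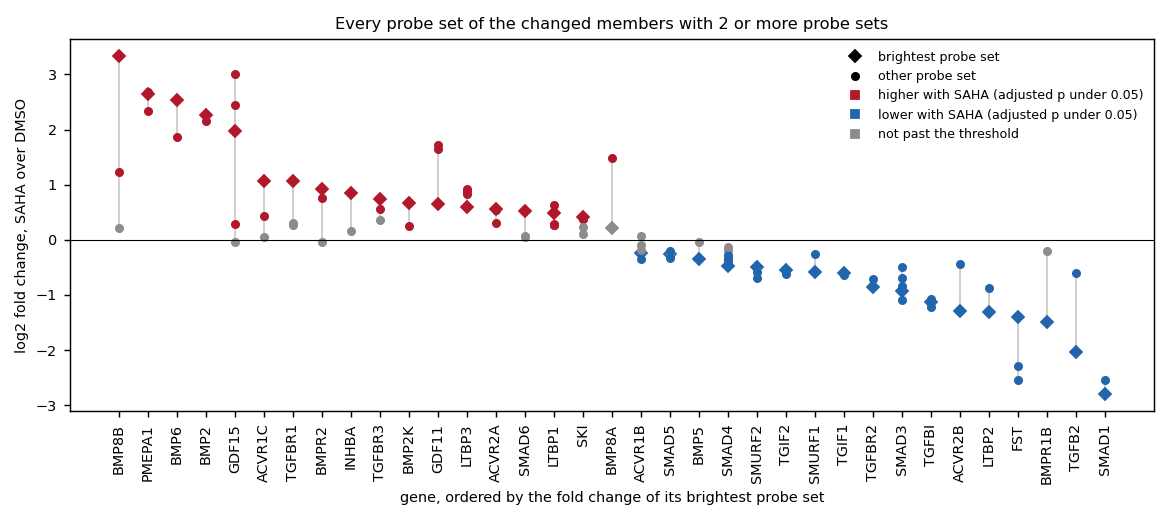
Each point is the log2 fold change of SAHA over DMSO of 1 probe set, for called members with 2 or more probe sets; diamonds are the brightest probe set, circles the others, and colours give the call in limma's test over probe sets. For SMAD1 the points lie at -2.80 and -2.55, while those of BMP8B run between 0.22 and 3.33; the diamond of BMP8A is grey because its p passed over genes but not over probe sets.

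Other genes of the pathway were read from 5 lists with 88 measured genes, of which 31 rose and 19 fell, where 24.6% of all genes rose and 23.8% fell. Of the 88, 51 had a mean log2 value of at least 7, the level at which 75.1% of all genes were called. At least 2-fold changes were rises in 14 and falls in 5, beside 5.93% and 4.47% of all genes. The counts of the lists are a description and were not tested. With poly-A centring 35 were higher and 16 lower, and with ribosomal centring 39 and 15. Of 21 TGF-beta target genes, 10 rose and 4 fell, with a median log2 fold change of 0.21 beside -0.01 over all genes. At least 2-fold, 8 of them rose and 0 fell. NEDD9, a focal adhesion scaffold, was at 7.52 ± 0.13 in SAHA and 3.62 ± 0.28 in DMSO arrays (SD, n = 3), a log2 fold change of 3.90 ± 0.14 (adjusted p = 5.29e-07). SNAI1, a repressor that drives epithelial-mesenchymal transition, rose by 2.22 ± 0.07 (adjusted p = 3.53e-07) and JUNB, an AP-1 subunit, by 1.28 ± 0.06 (adjusted p = 1.33e-06). The probe sets of NEDD9 and JUNB are shared by similar transcripts. COL4A1, a basement membrane collagen, fell by 0.73 ± 0.06 and TAGLN, an actin-binding protein of contractile cells, by 0.88 ± 0.08. HAS2, a hyaluronan synthase, fell by 0.80 ± 0.10. Sizes depend on the probe set here: with the mean of its probe sets NEDD9 was at 2.01 and COL4A1 at -0.42, and in its second brightest HAS2 was at -0.28.

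Of 11 BMP target genes, 6 rose and 1 fell, beside 24.6% and 23.8% of all genes. The median was 0.30, beside -0.01 over all genes. At least 2-fold, 4 rose and 1 fell, beside 5.93% and 4.47% of all genes. These counts were not tested. Among the ID genes, whose products block basic helix-loop-helix factors, all 4 rose. ID4 was at 8.96 ± 0.02 in SAHA and 6.34 ± 0.09 in DMSO arrays (SD, n = 3), a rise of 2.62 ± 0.06 (adjusted p = 1.77e-07), and ID2 rose by 4.13 ± 0.11 in a probe set shared by similar transcripts. ID1 rose by 1.14 ± 0.06 and ID3 by 0.30 ± 0.05, in shared probe sets too, and both are named after their values were seen, to complete the family. HEY1, also a target of Notch, rose by 2.35 ± 0.09 (adjusted p = 9.20e-07), with a smaller rise of 1.06 in the other probe set of HEY1. RUNX2, a factor of bone formation, was at 7.05 ± 0.13 in SAHA and 9.04 in DMSO arrays, 3.99-fold lower with SAHA (adjusted p = 5.88e-07). In its second probe set RUNX2 was at -0.27, and with the mean of both at -1.14.

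Genes of latency and activation divided evenly, with 3 of 11 higher, 3 lower and a median of -0.03. Of all genes, 24.6% rose and 23.8% fell. LRRC32 (GARP), which holds latent TGF-beta at the cell surface, rose by 1.44 ± 0.07 (adjusted p = 2.60e-06), while NRROS, which does so on microglia and macrophages, fell by 1.39 ± 0.14 (adjusted p = 7.68e-05). The proprotein convertase PCSK5 rose by 1.39 ± 0.13 and its relative PCSK6 fell by 0.59 ± 0.13. The membrane metalloprotease MMP14 was at 8.04 ± 0.02 in SAHA and 9.82 ± 0.07 in DMSO arrays (SD, n = 3), and fell by 1.78 ± 0.06 (adjusted p = 3.67e-07). FBN1, the microfibril protein fibrillin, rose by 0.43 ± 0.07. With the mean of its probe sets FBN1 was at 0.19 and PCSK6 at -0.32.

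Of 20 further ligands, co-receptors and extracellular modulators, 2 rose and 3 fell, beside 24.6% and 23.8% of all genes. Their median was -0.03. FSTL1, a secreted follistatin-like protein, fell by 0.95 ± 0.06 (adjusted p = 4.67e-06), the co-receptor ENG (endoglin) by 0.59 ± 0.09 and the BMP-binding protein BMPER by 0.33 ± 0.07, a call lost with poly-A or ribosomal centring. TWSG1, a BMP-binding protein, rose by 0.56 ± 0.08 and the BMP co-receptor RGMA by 0.58 ± 0.12. With the mean of its probe sets RGMA was at 0.22 and BMPER at -0.77. Of 25 SMAD partners and genes of SMAD turnover, 10 rose and 8 fell, beside the same shares of all genes, with a median of -0.02. Of these 25, 23 had a mean log2 value of at least 7, where 75.1% of all genes were called. HIPK2, a kinase that works with SMAD corepressors, fell by 2.16 ± 0.08 (adjusted p = 6.84e-07), the acetyltransferase and coactivator CREBBP by 1.14 ± 0.09 and the deubiquitinase USP4 by 0.85 ± 0.07. NEDD4L, a ubiquitin ligase for activated SMAD2 and SMAD3, rose by 0.98 ± 0.05 (adjusted p = 3.27e-06), the deubiquitinase USP9X by 0.68 ± 0.06 and the ubiquitin ligase WWP1 by 0.54 ± 0.06. With the mean of its probe sets HIPK2 was at -1.31, and without the shared probe sets CREBBP was at -0.57. The call of WWP1 was lost in its second brightest probe set, at 0.21.

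**Figure D4:**
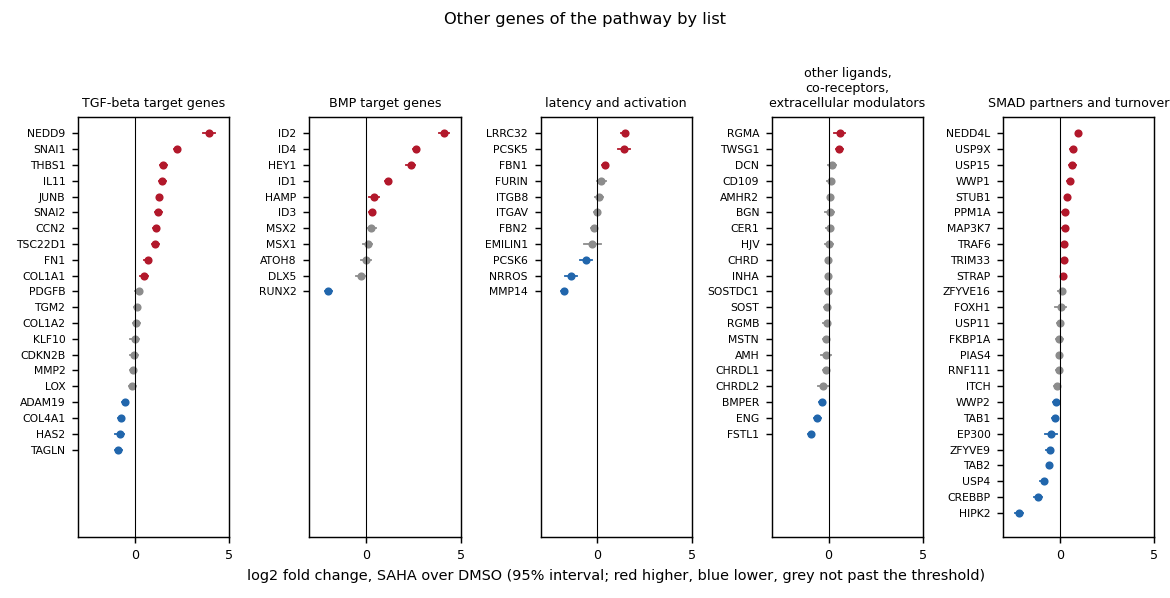
The log2 fold change of SAHA over DMSO with its 95% interval is plotted for the 88 measured genes of 5 other pathway lists, each gene on a line of its own; red is higher, blue lower and grey not past the threshold. The longest shifts to the right are those of ID2 at 4.13 and NEDD9 at 3.90, and HIPK2 and RUNX2 lie farthest left.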

How the data were processed

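Total RNA was amplified and biotin-labelled with a 3' in vitro transcription kit, per the labels' protocols, and hybridized to PrimeView arrays. The authors deposited 1 log2 value per probe set and array, made with RMA, per the submitters' processing notes. The arrays' sorted values nearly coincide, so a change shared by most transcripts would not show. The table held 49395 probe sets, 102 of them array controls, and 44988 named 1 gene in the platform's annotation. SAHA was compared with DMSO by limma 3.58.1 (lmFit, eBayes) in R 4.3.3 over 18132 genes, at an adjusted p under 0.05, with no filter on level or covariate. The procedure was tested on simulated data in which far fewer genes changed than were called here, so that test does not measure error rates in these arrays. Probe sets ending in _x_at or _s_at are called shared by similar transcripts. The members and lists were chosen with earlier results of these data known. Named were, per role, up to 6 called members with the smallest p and those not called with a mean of at least 7. In each other list they were the 3 called genes with the smallest p in each direction, and other members, named after their values were seen, complete a role's account. Of the 96 genes on those lists, 88 were measured and the others not analysed here. No label says that replicate numbers pair the arrays, and the main test did not pair them. Figures were drawn with matplotlib 3.10.9.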

Additional observations from a re-analysis of the deposited data

Results flagged for a closer look

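A probe set that names both BMP8B and BMP8A was left out of the gene-level test, since it names 2 genes. It was at 6.35 in SAHA and 5.50 in DMSO arrays (means of 3). The log2 fold change was 0.85 ± 0.08 (SE, limma's adjusted p = 3.96e-05 over probe sets). Signal above the DMSO level thus also stands outside the members' own probe sets. That rise is below the 3.33 of the probe set that stands for BMP8B, whose other probe sets gave 1.23 and 0.22. Groups of 3 arrays are too small for the search for single outlying arrays, which was not run.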

How the results depend on the processing

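No member called under one of the 20 other settings was called in the opposite direction, and among called genes that are named the 1 change of sign was that of BMPR2 with the second brightest probe set, at -0.031. Some genes that were not called also changed sign without being called. Among them were LTBP4 in several settings, up to 0.16, and BMP4, down to -0.03. Centred on poly-A spike-ins, SMAD2 was at 0.03 and SMAD7 at 0.01. In their second brightest probe sets TGFB3 was at -0.21, ACVRL1 at 0.20 and GREM1 at -0.09. With the second brightest probe set 13 of 50 members were higher, and all genes called higher were 2719 of 11734, fewer also because fewer genes have such a probe set. With genes of a mean of at least 7 there were 12 of 32 members called higher and 15 lower. In the main fit 75.1% of all genes at that level were called. With limma's treat at 1.2-fold all genes called higher were 2759 and all genes called lower 2531, and 20 of 88 other pathway genes were higher. Centred on poly-A spike-ins all genes called lower were 2556. Leaving out each array gave 18 to 21 members higher and 19 to 20 lower. With the replicate number as a block, 20 members were higher and 19 lower, and BMP8A was no longer called. Deviations of same-numbered arrays from their group means correlated at -0.13, -0.07 and -0.04, and those of differently numbered arrays at -0.03 to 0.10. With 3 arrays per group these correlations are too few to decide whether the numbers pair arrays. Genes near the bottom of the scale, such as INHBE, BMP5 and GREM1, have compressed differences.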
